A study of Mus musculus with 40 samples.

Results

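The livers of mice that ate the sucrose-rich WIS diet or the low-sucrose NIA diet as a daily meal were compared, at equal calories. The comparison took every library labelled as meal-fed (MF), 4 MF-WIS against 6 MF-NIA, which is 10 of the 40 libraries of the series. The mice were male C57BL/6J, an inbred strain, obtained at 6 weeks of age and placed on their diet at 5 months for the rest of their lives. In the NIA diet sucrose gave 7.6% and fat 17.7% of the calories at 3.418 kcal/g, and by weight 3.9% of it was sucrose. In the WIS diet, made of purified ingredients, sucrose gave 46% and fat 24.4% of the calories at 3.927 kcal/g, and 28.5% of its weight was sucrose. The diets thus differ in fat, energy density and ingredients as well as in sucrose, and these cannot be told apart here. Both MF groups were given 1 portion a day at 3 pm in the hopper, in amounts fixed from 14 months of age and matched in calories, per the labels. The labels used here give neither the age at collection, the hour of collection, the time since the meal nor the cage. For reference, the same diets were also compared under ad libitum feeding (AL, 6 WIS and 5 NIA libraries) and under 30% caloric restriction (CR, 10 WIS and 9 NIA), in other mice. Nothing in the labels used here says how the numbered replicates of a group were obtained beyond calling them biological, so p-values measure the spread between these libraries.

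Sucrose is split into glucose and fructose, and the liver takes up most dietary fructose, where ketohexokinase begins its breakdown. The carbon can be made into fatty acids by lipogenic enzymes under the transcription factors ChREBP and SREBP-1c. The liver also clears foreign chemicals and plant compounds of the food through cytochrome P450 enzymes, whose genes are switched on by the receptors CAR (gene Nr1i3) and PXR (gene Nr1i2). Both receptors bind DNA with the partner RXR at paired copies of a hexamer close to AGGTCA or AGTTCA.

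The stretches of DNA before the start of 5 genes that the results turn on are shown here, because 3 of them are P450 genes of that receptor list and the others are Fgf21, whose diet groups did not overlap, and Apoa4, which had the smallest p. Each is the 250 bases upstream of the RefSeq gene start on GRCm38.p6, read 5′ to 3′ on the gene's strand. In the P450 genes and in Apoa4 the capitals mark AGGTCA or AGTTCA on either strand. In Fgf21 they mark TGATGNAA, the type of element bound by ATF4 with a C/EBP partner, which stands there on the opposite strand as TTGCATCA, and the E-box CACGTG.
Cyp2c29, chr19:39286835-39287084, plus strand: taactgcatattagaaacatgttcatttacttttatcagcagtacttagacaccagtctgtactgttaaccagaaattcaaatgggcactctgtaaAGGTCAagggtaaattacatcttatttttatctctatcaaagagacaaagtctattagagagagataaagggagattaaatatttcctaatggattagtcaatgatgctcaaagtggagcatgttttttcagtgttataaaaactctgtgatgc
Cyp3a11, chr5:145879855-145880104, minus strand: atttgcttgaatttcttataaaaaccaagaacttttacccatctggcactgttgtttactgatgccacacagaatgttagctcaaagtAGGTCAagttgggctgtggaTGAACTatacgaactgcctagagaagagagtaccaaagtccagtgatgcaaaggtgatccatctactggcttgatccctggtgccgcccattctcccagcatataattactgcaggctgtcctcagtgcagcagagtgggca
Cyp2c55, chr19:39006769-39007018, plus strand: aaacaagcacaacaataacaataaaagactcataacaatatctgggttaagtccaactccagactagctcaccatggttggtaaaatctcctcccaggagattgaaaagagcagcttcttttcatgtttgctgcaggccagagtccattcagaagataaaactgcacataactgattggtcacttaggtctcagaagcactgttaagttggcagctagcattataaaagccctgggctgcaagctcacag
Fgf21, chr7:45615491-45615740, minus strand: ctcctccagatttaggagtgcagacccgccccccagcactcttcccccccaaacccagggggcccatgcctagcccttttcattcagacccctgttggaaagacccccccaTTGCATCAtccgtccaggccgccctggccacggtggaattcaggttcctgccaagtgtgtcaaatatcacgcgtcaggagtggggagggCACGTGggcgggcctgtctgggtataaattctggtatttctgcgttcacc
Apoa4, chr9:46240594-46240843, plus strand: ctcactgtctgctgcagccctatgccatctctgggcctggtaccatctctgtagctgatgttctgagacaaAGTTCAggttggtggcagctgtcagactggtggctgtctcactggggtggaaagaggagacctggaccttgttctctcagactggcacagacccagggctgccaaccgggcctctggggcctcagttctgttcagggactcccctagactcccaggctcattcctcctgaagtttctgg
Cyp3a11 held 2 of these hexamers, Cyp2c29 and Apoa4 held 1 each, and Cyp2c55 held 0 in this window. At least 1 of the 2 hexamers was present in 24.2% of all 32851 such windows, TGATGNAA in 3.45% and CACGTG in 6.02%. Among genes tested, a window with a hexamer was found for 9 of 19 CAR and PXR list members (47.4%) and for 23% of the 6529 tested genes with an entry. Of 32 lists with 10 or more such windows, 4 had a higher share than the CAR and PXR list, up to 80% for antigen presentation. TGATGNAA was found for 6 of the 13 integrated stress response members with an entry (46.2%) and for 2.6% of those 6529 genes, and the next list, gluconeogenesis, had 27.3%. A match describes the letters only and does not show that a factor binds there.

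Of 7958 genes tested, 0 passed in MF-WIS against MF-NIA (limma, Benjamini-Hochberg adjusted p under 0.05), and 843 (10.6%) had an unadjusted p under 0.05, 426 higher in WIS (5.35%) and 417 lower (5.24%). The smallest adjusted p was 0.0833, for Apoa4. Other settings called between 0 and 36 genes, the most with array weights, which count a library less where it stands apart. Apoa4, Csad, Slc2a9, Cyp2c29, Cyp2c55, Ces2a, Fads2 and Plin3, all described below, were among those 36. For the median gene the 95% interval of the difference, not adjusted for the number of genes, reached 0.30 log2 units to each side. Smaller diet differences could not be resolved with 4 and 6 libraries, and larger ones, such as 2.05 for Apoa4, did not pass either. In 174 genes (2.19%) every WIS library lay on 1 side of every NIA library, 79 higher (0.993%) and 95 lower (1.19%). All values below are therefore differences in means that did not pass the test over all genes, unless an alternative is named. A level is the deposited score in log2 units, relative to the mean of all probes on the array, and levels of different genes cannot be set against each other.

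MF-WIS replicate 4 stood apart from the other libraries. In it 612 genes lay over 1 log2 unit from the mean of the other MF-WIS libraries, against 28 to 258 in the other 9 libraries measured the same way. It had the highest score for NRF2 and glutathione genes (1.23, against -0.44 to 0.15 in the other 9) and for bile duct cell markers (1.12, against -0.33 to 0.08), and the lowest for cholesterol synthesis (-1.18, against -0.29 to 0.66). A score is the median over a list's genes of the deviation from their mean over the 10 libraries. The bile duct list holds Krt8 and Krt18, which are not particular to bile duct cells. MF-NIA replicate 4 had the highest neutrophil (1.42), macrophage (0.99) and erythroid marker scores (2.14). Without MF-WIS replicate 4, limma called 1 gene (0.0126%), Cyp2c55, 457 (5.74%) had an unadjusted p under 0.05, 198 higher (2.49%) and 259 lower (3.25%), and groups did not overlap in 361 (4.54%), 167 higher (2.1%) and 194 lower (2.44%). List medians and the genes described in most detail are therefore given with and without that library. Of 16 hepatocyte markers listed, 12 were measured, with a median log2 difference of 0.20 (0.36 without MF-WIS replicate 4). Their scores ran from -0.46 to 0.30 in MF-NIA and from -0.17 to 0.60 in MF-WIS.

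The CAR and PXR list, of drug and foreign chemical metabolism, was lower in MF-WIS. Among the lists with 5 or more measured genes it had the lowest median. Of 19 measured members of the CAR and PXR list, 17 were lower in WIS in the mean and 2 higher, with a median log2 difference of -0.64 (-0.47 without MF-WIS replicate 4), against -0.02 over all genes. None passed over all genes in the limma fit with all libraries, 8 had an unadjusted p under 0.05 and were lower, and 0 were higher. Groups did not overlap in 4 members, all lower (6 without replicate 4, all lower). Of all genes tested, 5.24% were lower with an unadjusted p under 0.05. Groups did not overlap with WIS lower in 1.19% of all genes (2.44% without replicate 4). The list score ranged from 0.03 to 0.53 in the 6 NIA libraries and from -0.41 to -0.15 in the 4 WIS libraries, so every WIS library, MF-WIS replicate 4 included, lay below every NIA library. The same list had a median of -0.42 under AL and -0.47 under CR. Drug metabolism did not move as a whole to this extent. Of 20 measured genes of the conjugation list 12 were lower and 8 higher under meal feeding. The median of that list was -0.15 (-0.23 without MF-WIS replicate 4), and 3 members were lower with an unadjusted p under 0.05 (limma).

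Cyp3a11, the main PXR-induced P450 of mouse liver, had levels of 5.89, 5.54, 5.56 and 5.80 in MF-WIS replicates 1 to 4 and of 7.25, 6.37, 6.19, 6.54, 6.40 and 6.57 in MF-NIA replicates 1 to 6. The groups did not overlap, and all 4 WIS libraries lay close together. The mean was 1.81-fold lower in WIS (log2 -0.86, SE 0.31, 95% interval -1.48 to -0.23, limma adjusted p = 0.311), and log2 -0.89 without MF-WIS replicate 4. Under CR the same gene was lower by a called difference (log2 -1.49, adjusted p = 0.000102, n = 10 and 9), and under AL it lay at -1.29 (adjusted p = 0.0685).

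Cyp2c55, a P450 acting on fatty acids, had levels of -0.09, -0.20, -0.62 and 1.59 in the WIS libraries and of 1.46, 1.63, 1.98, 1.51, 0.53 and 1.16 in the NIA libraries. The other WIS libraries, replicates 1 to 3, lay below all NIA libraries, and MF-WIS replicate 4 lay among the NIA libraries. The log2 difference was -1.21 (SE 0.31, limma adjusted p = 0.222) with all libraries. Without MF-WIS replicate 4 it was -1.68 (SE 0.28), 3.21-fold lower, and passed (limma adjusted p = 0.00549), while its adjusted p ranged from 0.000224 to 0.411 over all settings tried. Under CR it was called lower too (log2 -1.34, adjusted p = 0.000458), and under AL it lay at -1.39 (adjusted p = 0.0602).

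Cyp2c29, a P450 gene induced through CAR, had levels of 3.37, 3.40, 3.38 and 0.30 in WIS and of 4.42, 5.10, 5.00, 4.15, 3.86 and 4.57 in NIA. The groups did not overlap with or without MF-WIS replicate 4, which was the lowest by far. The log2 difference was -1.91 (SE 0.51, limma adjusted p = 0.268), -1.14 without that library (adjusted p = 0.838) and -1.25 with array weights. For the closely related genes Cyp2c37 and Cyp2c50 the differences were -1.54 and -1.57, and -0.48 and -0.47 without it. With all libraries, other probes gave -1.61 and -0.65 for Cyp2c37 and -1.71 for Cyp2c50. Probes of the Cyp2c, Cyp2b and Cyp3a families can share targets between near-identical genes, so the members are not independent.

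Ces2a, a carboxylesterase, was 0.64 lower in WIS on the log2 scale (difference -0.64, SE 0.18, limma adjusted p = 0.268), and -0.68 without MF-WIS replicate 4. With background-corrected signals (neqc) the difference was -1.19. Its WIS levels were -0.42, -0.54, -0.23 and -0.26, and 5 of 6 NIA libraries lay above all of them. Cyp2b10, the standard CAR target, is named after its values were seen. It was detected on 0 of the 4 MF-WIS arrays and 5 of the 6 MF-NIA arrays, and NIA was at least 1.54-fold higher against the detection floor of the WIS arrays (limma adjusted p = 0.33). Of the receptors, also named after seeing their values, Nr1i3 did not overlap between groups (WIS 1.51 ± 0.66, SD, n = 4, NIA 2.38 ± 0.18, SD, n = 6, limma adjusted p = 0.33; the difference was -0.86, and -0.56 without MF-WIS replicate 4) and Nr1i2 differed by 0.10 (adjusted p = 0.924). The plot of levels by library shows 3 of these P450 genes beside 5 other genes.

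**Figure D1:**
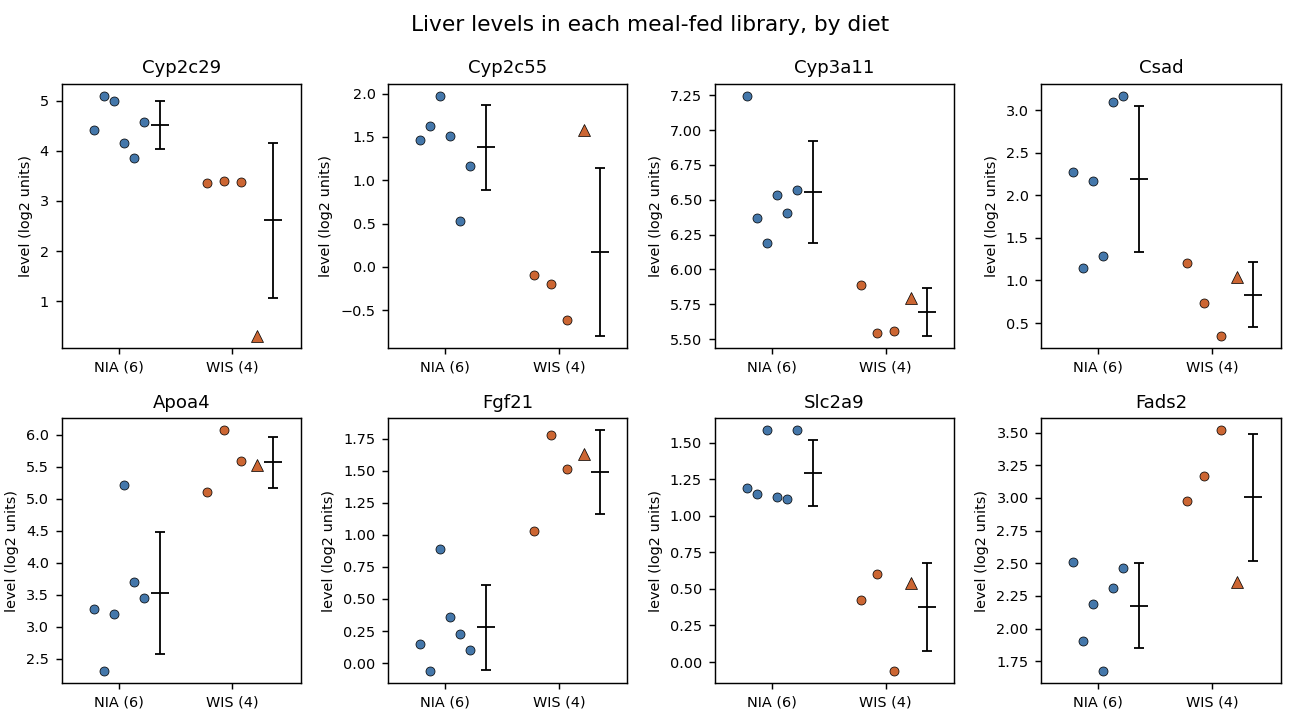
Level of 8 genes (y axis, log2 units relative to the mean of the array) in the 6 MF-NIA and 4 MF-WIS libraries (x axis). Points are libraries, the triangle is MF-WIS replicate 4, and the bar beside each group is its mean ± SD. Cyp2c29, Cyp3a11, Fgf21 and Slc2a9 show groups that do not overlap. In Cyp2c29 and Cyp2c55 the triangle lies far from the other WIS libraries, at 0.30 and 1.59.

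Apoa4, an apolipoprotein made with lipid transport, had the smallest p in the comparison. Its levels were 5.10, 6.07, 5.59 and 5.53 in WIS and 3.28, 2.31, 3.20, 5.21, 3.70 and 3.44 in NIA. Of the 6 NIA libraries 5 lay below all WIS libraries, and MF-NIA replicate 4 reached into their range. The mean was 4.14-fold higher in WIS (log2 2.05, SE 0.40, 95% interval 1.23 to 2.86, limma adjusted p = 0.0833). It was 2.06 without MF-WIS replicate 4 (adjusted p = 0.187), and the gene passed under 8 of 52 alternatives, with adjusted p from 0.00139 to 0.305. The difference was 2.28 under AL (adjusted p = 0.00422) and 2.35 under CR (adjusted p = 5.43e-06), both called (2 genes, 0.0251%, were called under AL), and in neither of those regimens did the diets overlap: levels ran from 2.25 to 4.09 and from 4.86 to 6.19 under AL, and from 2.11 to 3.85 and from 4.86 to 6.82 under CR, for NIA and WIS. The diet difference itself did not differ detectably between regimens for Apoa4 (meal feeding minus AL -0.23, SE 0.55, adjusted p = 0.898; minus CR -0.30, SE 0.49, adjusted p = 0.901).

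Csad, an enzyme on the way from cysteine to taurine, was 2.56-fold lower in WIS in the mean (log2 -1.36, SE 0.40, limma adjusted p = 0.268) and at -1.43 without MF-WIS replicate 4. Its WIS levels were 1.21, 0.74, 0.35 and 1.04 and its NIA levels 2.28, 1.15, 2.17, 1.28, 3.09 and 3.17, so 1 NIA library, at 1.15, lay within the WIS range and the other 5 lay above it. Csad lay at -1.32 under AL (adjusted p = 0.165) and was called lower at -1.24 under CR (adjusted p = 0.0123). Slc2a9, a urate and sugar transporter chosen after its values were seen, was 1.89-fold lower in WIS (log2 -0.92, SE 0.21, limma adjusted p = 0.132; -0.97 without MF-WIS replicate 4) and did not overlap between groups. Its difference was -0.17 under AL and -0.47 under CR, neither of them called, and the interaction against AL did not pass (-0.75, SE 0.29, adjusted p = 0.502).

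Genes of the integrated stress response, which adapts cells to amino acid shortage and other strain through ATF4, were mostly higher in WIS: 13 of 16 were above NIA in the mean, 0 passed over all genes and 4 had an unadjusted p under 0.05, all higher. Of all genes tested, 46.2% were above NIA in the mean and 5.35% were higher with an unadjusted p under 0.05. The list median was 0.20, and 0.05 without MF-WIS replicate 4. Fgf21, a liver hormone that responds to sugar and to protein shortage, had levels of 1.03, 1.78, 1.51 and 1.63 in WIS and of 0.15, -0.06, 0.89, 0.36, 0.23 and 0.11 in NIA. Every WIS library lay above every NIA library. The mean was 2.31-fold higher (log2 1.21, SE 0.45, 95% interval 0.29 to 2.13, limma adjusted p = 0.336), and log2 1.16 without that library. It lay at 0.72 under AL and at 1.11 under CR (adjusted p = 0.0507).

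Atf5, a stress-induced transcription factor, did not overlap between groups either, at 4.89, 4.41, 4.54 and 4.39 in WIS and 4.36, 3.88, 3.82, 3.71, 3.79 and 4.35 in NIA (log2 0.57, SE 0.21, limma adjusted p = 0.311; 0.63 without that library). It was called higher under CR (0.54, adjusted p = 0.0351). Gars and Nupr1, an aminoacyl-tRNA synthetase and a stress-induced nuclear protein, were 0.25 and 0.58 higher in the mean (adjusted p = 0.441 and 0.461). Atf4 itself differed by 0.06.

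Lipogenic genes lay higher in MF-WIS replicates 2 and 3 than in any NIA library, taken as a list, and lower in MF-WIS replicate 4. The list score was -0.05, 0.64, 0.65 and -0.57 in WIS replicates 1 to 4 and -0.49 to 0.29 in NIA. Of 21 measured members 15 were higher in WIS in the mean, 0 passed and 2 had an unadjusted p under 0.05. Of all genes tested, 10.6% had such a p. The median was 0.29 with all libraries and 0.54 without MF-WIS replicate 4, where groups did not overlap in 5 members, all higher, 6 had an unadjusted p under 0.05 and 0 passed. Without that library 2.1% of all genes did not overlap with WIS higher, and 5.74% had such a p. Fads2, the desaturase of polyunsaturated fatty acids, had levels of 2.97, 3.17, 3.52 and 2.36 in WIS and of 2.51, 1.90, 2.19, 1.68, 2.31 and 2.46 in NIA (log2 0.83, SE 0.34, limma adjusted p = 0.373; 1.05 without that library). Scd1, the desaturase that makes oleate, was named after its values were seen (0.52, adjusted p = 0.487; 0.66 without that library, with groups that do not overlap), as was Srebf1, which lay at -0.27 (adjusted p = 0.79).

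Among genes of sugar use, Khk, the ketohexokinase that begins fructose breakdown, was 0.63 higher in WIS (SE 0.28, 95% interval 0.07 to 1.19, limma adjusted p = 0.409) and 0.78 without MF-WIS replicate 4, and its other probe gave 0.55. Levels of Khk were 5.21, 5.86, 6.02 and 5.09 in WIS and 5.10, 4.57, 4.44, 4.74, 5.30 and 5.33 in NIA, so the groups overlapped. Tkt and Pgls of the pentose phosphate pathway were 0.53 and 0.26 higher (adjusted p = 0.268 and 0.344), Tkt with its highest level, 4.74, in MF-WIS replicate 4 and a difference of 0.28 both with array weights and without that library. Of 17 measured members 12 were higher in the mean, 3 of them with an unadjusted p under 0.05, and 0 passed. Of all genes tested, 5.35% were higher with such a p. The list median was 0.11, and 0.20 without that library.

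The cholesterol synthesis list turned with a single library. Its median was -0.25 with all libraries and 0.11 without MF-WIS replicate 4, with 15 of 18 members lower in the first case and 11 higher in the second. Srebf2, the transcription factor that drives the pathway, was 0.40 higher in WIS and did not overlap between groups (levels 0.85, 0.85, 0.72 and 0.71 against 0.23, 0.18, 0.08, 0.63, 0.51 and 0.63, limma adjusted p = 0.423), 0.43 without that library and 0.69 with neqc. The enzyme genes Nsdhl and Msmo1 lay at -0.73 and -0.67, and at -0.29 and -0.47 without it. Cyp7a1, the rate-limiting enzyme of bile acid synthesis, had a level of -0.51 in MF-WIS replicate 4 and of 2.36, 3.46 and 3.59 in the other WIS libraries, and its difference was -1.41 (limma adjusted p = 0.409), and -0.50 without that library. Slco1a4, an uptake transporter for bile acids and drugs, lay at -1.16 (adjusted p = 0.281), and at -0.84 without it.

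Circadian clock genes were lower in the mean for 13 of 15 members, with a median of -0.33 (-0.45 without MF-WIS replicate 4), 3 with an unadjusted p under 0.05, all lower, and 0 passing. Of all genes tested, 5.24% were lower with such a p. Per2, a clock repressor, had levels of 0.79, 1.56, 1.78 and 1.62 in WIS and of 1.68, 2.36, 2.57, 3.16, 2.84 and 1.95 in NIA (log2 -0.99, SE 0.33, limma adjusted p = 0.295; -1.05 without that library). Its other probe gave -0.88. Ciart and Per3, repressors of the same loop, lay at -0.96 and -0.51 (-0.90 and -0.45 without it), Per3 being detected on 1 of 4 WIS arrays. The clock list median was 0.08 under AL and 0.13 under CR, and the interaction for Per3 against CR, -1.17 (SE 0.28), did not pass (adjusted p = 0.171). MF-NIA replicate 1 had a clock score of -0.40, within the range of the WIS libraries (-0.45 to 0.08), while the other 5 NIA libraries lay at 0.18 to 0.33. Since these genes cycle over the day, the part of the hour of collection in these values was not tested.

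**Figure D2:**
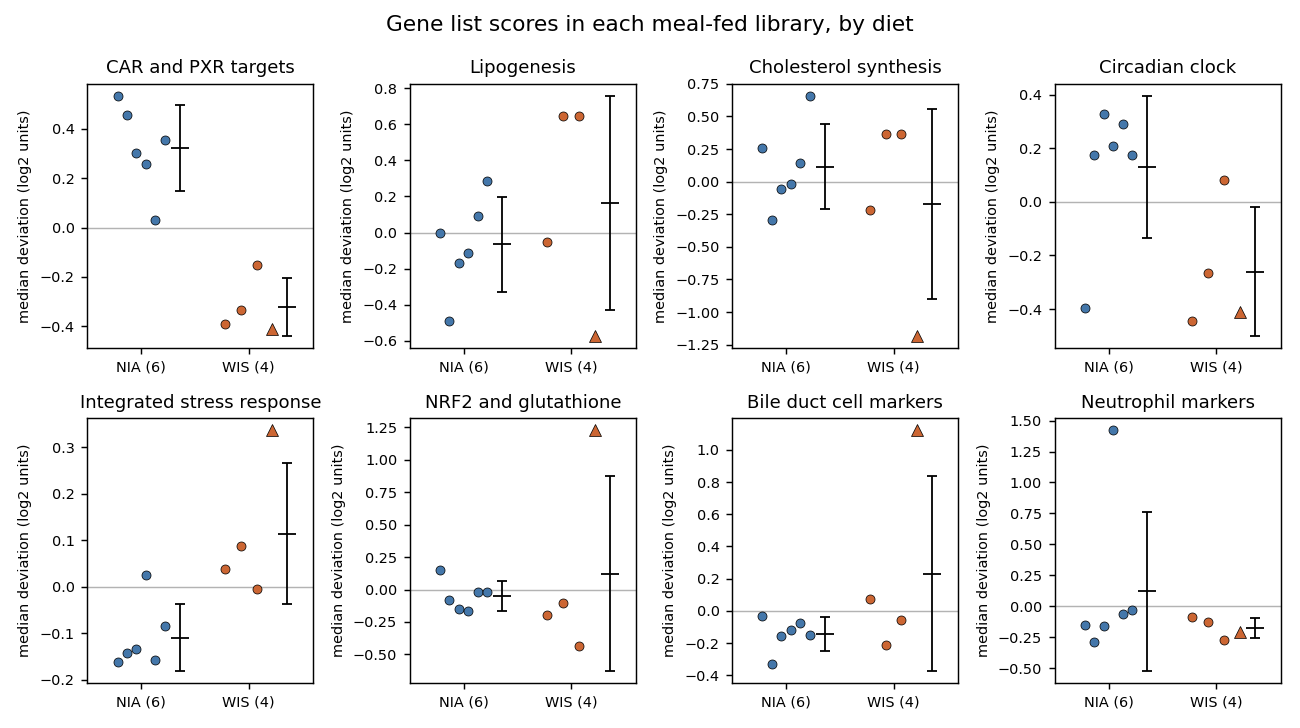
List score (y axis, median deviation of the list's genes in log2 units) in the 6 MF-NIA and 4 MF-WIS libraries (x axis) for 8 gene lists. Points are libraries, the triangle is MF-WIS replicate 4, and bars are mean ± SD. The CAR and PXR score separates the diets, from 0.03 to 0.53 in NIA against -0.41 to -0.15 in WIS, and the NRF2 score of the triangle is 1.23.

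In fat burning and storage, the nuclear receptor gene Ppara, which drives fatty acid oxidation, was 0.55 lower in WIS on the log2 scale (difference -0.55, SE 0.18, limma adjusted p = 0.281; -0.47 without MF-WIS replicate 4) and did not overlap between groups, at -0.11, 0.17, 0.35 and -0.20 against 0.71, 0.66, 0.60, 0.45, 0.63 and 0.54. With neqc the difference of Ppara was -0.86. The 30 measured genes of its list had a median of -0.10, and of 0.09 without MF-WIS replicate 4. Plin3, a lipid droplet coat protein, was 0.82 higher (SE 0.19, limma adjusted p = 0.132), with levels of 2.20, 2.28, 1.78 and 3.11 against 1.19, 1.42, 1.96, 1.36, 1.69 and 1.52, and 0.56 without that library. Cidea, a lipid droplet fusion protein, lay at -1.14 (adjusted p = 0.359; -0.98 without it), with its highest level, 2.04, in MF-NIA replicate 1. Of 18 lipid droplet genes 9 were higher and 9 lower.

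NRF2 and glutathione genes and markers of cell types other than hepatocytes moved with single libraries to different extents. The NRF2 list had a median of 0.14, and of -0.15 without MF-WIS replicate 4, where 5 of 33 members did not overlap, all lower. Without that library 2.44% of all genes did not overlap with WIS lower. Cbr3, a carbonyl reductase, had a level of 5.84 in MF-WIS replicate 4 and of -0.57 to -0.26 in the other WIS libraries. In Gpx2, a glutathione peroxidase, these were 3.34 and -0.74 to -0.57. Of 5 measured genes of the bile duct cell list 4 were higher, with Krt8 at 5.72 in that library and at 4.06 to 4.33 in the other WIS libraries. Krt8 and Krt18 of this list are keratins of hepatocytes as well, so the list does not single out bile duct cells. Its median was 0.50, and 0.18 without that library. The marker lists of endothelial cells (median -0.29, 14 of 16 lower), macrophages (-0.25, 16 of 18 lower) and neutrophils (-0.33, 7 of 7 lower) had medians of -0.08, -0.15 and -0.30 without it. Without MF-NIA replicate 4 these medians were -0.23, -0.06 and -0.05. In whole liver, fewer cells of a type and less RNA per cell cannot be told apart, and the part of these cells in the other differences was not tested. The plot of list medians shows which lists cross 0 when that library is left out.

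**Figure D3:**
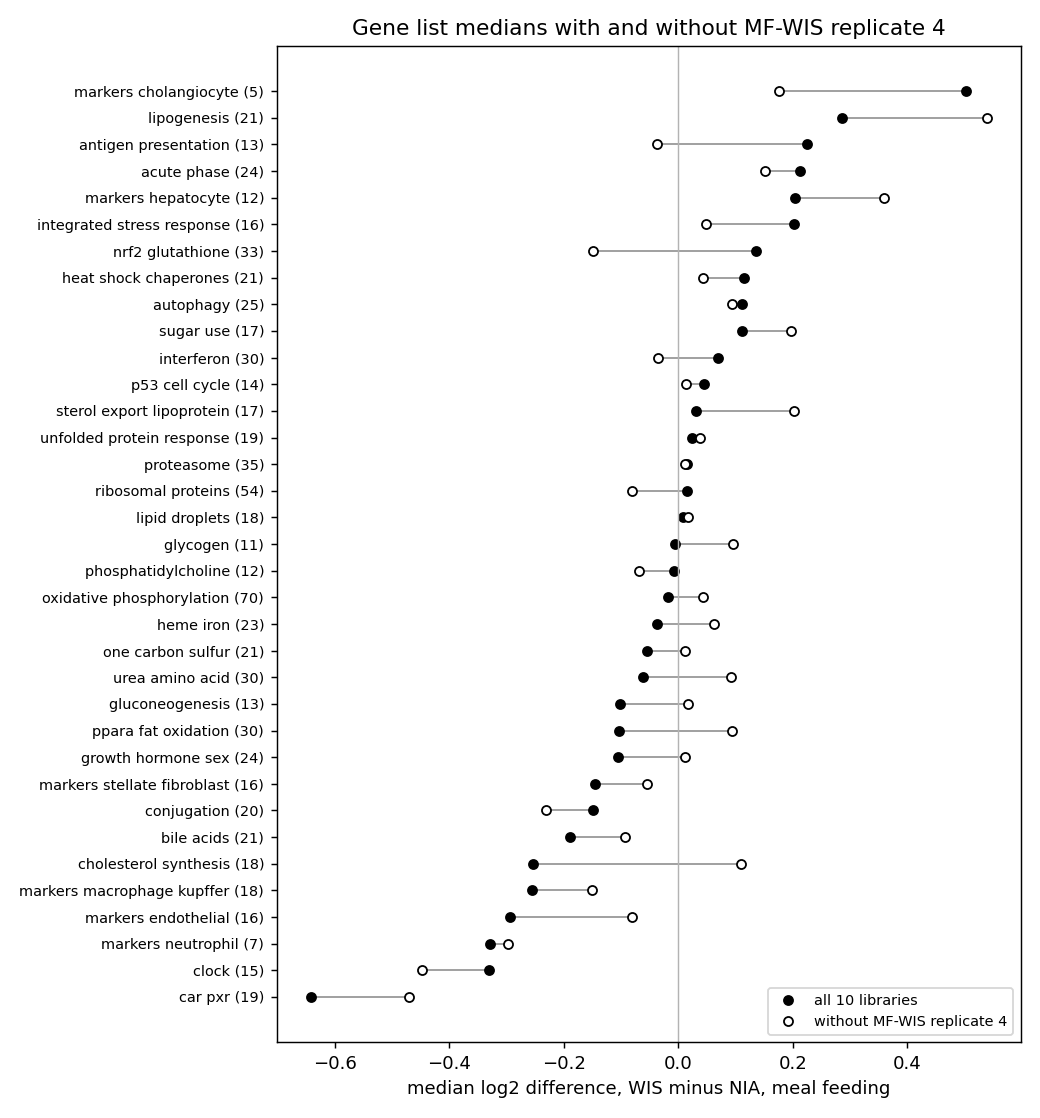
Median log2 difference, WIS minus NIA under meal feeding (x axis), of each gene list with 5 or more measured genes (y axis, number measured in brackets). Filled points use all 10 libraries and open points leave out MF-WIS replicate 4. The CAR and PXR list lies lowest, at -0.64 and -0.47, and cholesterol synthesis moves from -0.25 to 0.11.

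The meal-fed diet difference was then set beside the one under caloric restriction, which shares no library with it. Of 7958 genes 223 (2.8%) were called by diet under CR, 119 higher (1.5%) and 104 lower (1.31%, limma, adjusted p under 0.05). Of the 119, 82 (68.9%) were also higher in WIS under meal feeding in the mean, with a median difference of 0.07 against 0.35 under CR. Of the 104, 79 (76.0%) were also lower, with a median of -0.14 against -0.41. Over all genes, WIS was higher in the mean in 46.2%. Of the 119, 14, and of the 104, 20 had an unadjusted p under 0.05 in the same direction under meal feeding, and 2 and 1 in the opposite direction. Without CR-NIA replicate 1, 274 and 206 genes were called under CR, with a meal-fed median of 0.04 and -0.12. Of these, 33 and 36 had an unadjusted p under 0.05 in the same direction and 10 and 4 in the opposite one. The genes were chosen for their difference under CR, so a median nearer 0 under meal feeding does not show a smaller difference there. Across the 7958 genes, which are not independent, the correlation of the meal-fed diet difference with that under CR was 0.26, and with that under AL 0.089, both given as a description (0.35 and 0.043 without MF-WIS replicate 4). Without MF-WIS replicate 4, AL-WIS replicate 1 and CR-NIA replicate 1 they were 0.34 with CR and 0.18 with AL. In each case the differences come from 1 fit that shares each gene's spread.

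**Figure D4:**
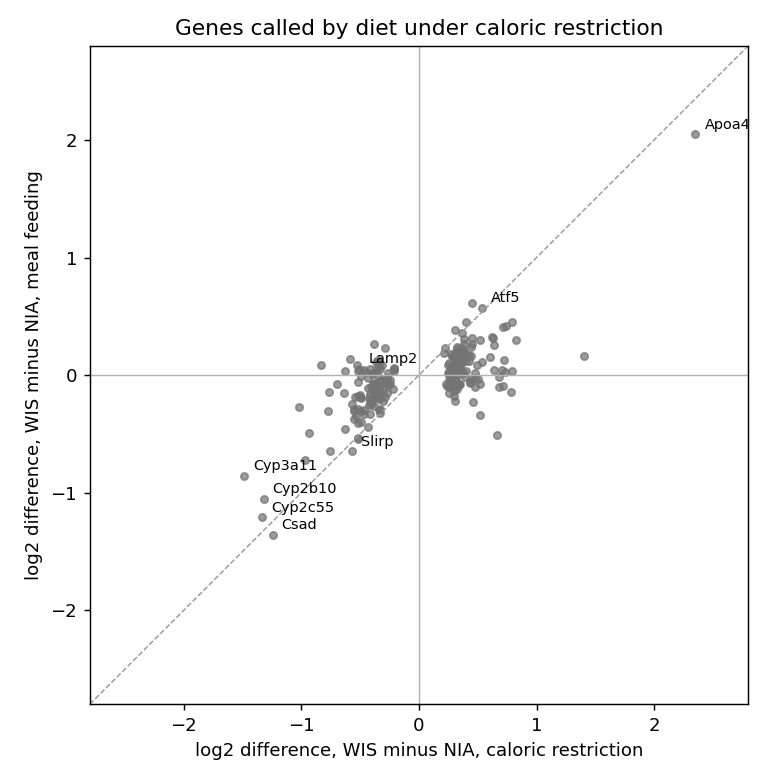
Log2 difference, WIS minus NIA, under caloric restriction (x axis) and meal feeding (y axis) for the 223 genes called under restriction. Each point is a gene, and the dashed line marks equal differences. Apoa4 lies at 2.35 and 2.05 and Csad at -1.24 and -1.36, near the line. The genes were chosen by their value on the x axis, so the 2 axes cannot be compared in size.

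Whether the diet difference depended on the regimen was tested gene by gene. Against AL, 0 genes passed (limma, smallest adjusted p 0.352), and 771 (9.69%) had an unadjusted p under 0.05. Against CR, 0 passed (smallest adjusted p 0.171), and 684 (8.6%) had an unadjusted p under 0.05. That smallest adjusted p was shared by 24 genes, of which Lamp2, Chchd1, Diablo, Dusp11 and Tmem208 had the smallest unadjusted p. Lamp2, a lysosomal membrane protein, differed by 0.06 under meal feeding and was called lower at -0.51 under CR (interaction 0.56, SE 0.12, adjusted p = 0.171). Chchd1, a mitochondrial ribosome protein, differed by 0.04 and by a called -0.63 (interaction 0.67, SE 0.15). For Tmem208, Dusp11 and Diablo, a mitochondrial protein released in cell death, the interactions were 0.62, -0.60 and 0.52. Their meal-fed differences were 0.35, -0.33 and 0.40, and 0.14, -0.21 and 0.28 without MF-WIS replicate 4. Without that library the meal-fed difference was 0.07 for Lamp2 and -0.13 for Chchd1. Against AL 23 genes shared the smallest adjusted p in limma, 0.352, and those with the smallest unadjusted p were Sema4b (-0.97), Tkt (0.89, SE 0.21), the endothelial receptor gene Eng (-0.81), Vps53 (0.66) and Gng5 (-0.88). Tkt was 0.53 higher in WIS under meal feeding and lay at -0.35 under AL. Without MF-WIS replicate 4 its meal-fed difference was 0.28. That of Sema4b went from -0.45 to -0.27, of Eng from -0.28 to -0.06 and of Gng5 from -0.36 to -0.39. Vps53 had a level of 4.27 in that library and of 3.44 to 3.53 in the other WIS libraries.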

How the data were processed

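Liver RNA was measured on Illumina mouse BeadChips, 1 array per sample. Groups were taken from the labels, 4 MF-WIS and 6 MF-NIA among 40 arrays. Values came from the authors' table, a deposited score for every probe whose mean is 0 and SD 1 within an array. How it was made is not given in the sources used here. A second table deposited by the authors gives intensity on a linear scale (GenomeStudio 2011.1, per the submitters' processing notes). Each of its probes also has a detection p-value, per the file headers. Its headers name groups, not samples, and list 6 AL-NIA columns for 5 samples. Those 6 were not used, and 34 were. The scores of all 10 meal-fed arrays matched a signal column of their group within 0.01.

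Scores were multiplied by 1.51, the median SD of log2 signal over 34 columns. Kept were 11334 probes detected (p under 0.01) in 4 or more of those columns, and the brightest stood for each of 7958 genes. Without background subtraction, differences of dim genes are understated. Meal-fed arrays detected 9132 to 10349 of 25697 probes, and detection did not separate the diets (exact two-sided permutation test on percent detected, p = 0.49, n = 6 and 4, smallest possible 0.00952). The number of arrays limits the precision.

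limma 3.58.1 (R 4.3.3) was fitted with 1 mean per group over 40 arrays, p adjusted by Benjamini-Hochberg over all genes. The script was tested on simulated data. Replicate numbers were not used to pair the diets. Deviations of same-numbered libraries correlated at 0.12, 0.03, -0.09 and 0.22. Symbols came from the platform annotation, where 23978 probes had 1 symbol, 1719 none and 0 several. Genes named are up to 6 of smallest p per list described and 5 per interaction, others being named as chosen after their values were seen or, without a list, for their small p. The members, lists and lists described were chosen with earlier results of these data known. Promoter sequences are RefSeq's. Alternatives were other filters, probe means, normalizations, weights, moderation and left-out libraries.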

Additional observations from a re-analysis of the deposited data

Results flagged for a closer look

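In 300 sets of meal-fed libraries, a gene or a list score within 1 diet group, 32 had a highest or lowest library far from the others by Dixon's test. Of the 32, 17 were MF-WIS replicate 4. Chance flags about 1 in 20 sets, but that rate does not hold for genes named for a small p or a large difference, to which 1 library can bring them. Over all 7958 genes the same test flagged 9.19% in MF-WIS (731 genes, 558 of them for replicate 4) and 8.08% in MF-NIA (643 genes, 342 of them for replicate 4).

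In MF-WIS replicate 4 the oxidative defence genes Cbr3, Gpx2 and Txnrd1 had the highest levels of their group, 5.84, 3.34 and 2.01. So did the lysosomal genes Lamp1 (6.13), Ctsb (6.93) and Atp6v1c1 (1.98), the mitochondrial genes Chchd1 (5.03) and Timm44 (1.84), the keratin gene Krt8 (5.72) and Vps53 (4.27). Its levels were the lowest for the stromal and matrix genes Dcn (3.14) and Ecm1 (0.48), for Cyp2c29 (0.30) and for the proteasome gene Psma3 (4.65). Within MF-WIS, its score was the lowest for fat oxidation genes (-0.45). It was the highest there for p53 and cell cycle genes (0.34) and ribosomal proteins (0.21), the last below MF-NIA replicate 4 (0.26).

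Within MF-NIA, replicate 4 was highest for Cbr3 (0, against -0.48 to -0.32 in the other NIA libraries) and Nupr1 (-0.0906). It was also highest there for the macrophage (0.99), neutrophil (1.42) and erythroid scores (2.14), and lowest for Cox7a2 (1.74) and Fitm1 (-0.50).

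Within MF-NIA, replicate 1 was highest for Cyp3a11 (7.25) and lowest for the clock score (-0.40). Dcn was lowest there in replicate 2 (4.88) and Tek in replicate 5 (0.68). Within MF-WIS, replicate 2 was highest for Dctn1 (0.015) and Stat5a (-0.0906), and replicate 3 was lowest for Gng5 (2.10) and Tubb2b (2.28).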

How the results depend on the processing

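The count of genes called in MF-WIS against MF-NIA was 0 in the fit as reported, and 36 with array weights (18 higher, 18 lower), 3 with quantile normalization of the scores, 1 with neqc, 1 with quantile normalization of the log2 signals, 15 without AL-WIS replicate 1 and CR-NIA replicate 1, and 1 without those and MF-WIS replicate 4. For the interaction against CR, also 0 as reported, these counts were 20, 0, 5, 4, 47 and 7. Leaving out 1 of the 40 libraries gave 0 to 10 genes, above 0 without AL-WIS replicate 1 (10), MF-WIS replicate 3 (5), MF-WIS replicate 2 (2), CR-WIS replicate 4 (2), MF-WIS replicate 4 (1) and MF-NIA replicate 4 (1). The interaction against CR then gave 0 to 6, above 0 without CR-NIA replicate 1 (6), MF-WIS replicate 2 (3), MF-NIA replicate 1 (1) and CR-WIS replicate 1 (1), and that against AL 0 in all 40. Under the same removals the diet called 145 to 480 genes under CR and 1 to 13 under AL. The replicate block left all 3 counts at 0, where they already stood, so it cannot show whether the numbers pair the libraries. Cbr3 turned from higher to -0.12 without MF-WIS replicate 4 (-0.12 to 2.02 over single removals), and Hpx, at 0.51 as reported and among the brightest genes, to -0.00558 (quantile of scores), -0.00336 (neqc) and -0.00325 (quantile of log2 signals). The cause was not tested. Of the other gene differences under these alternatives, 5288 kept their sign and side of the threshold and 58 passed it. Of the values of list medians, 2006 moved by less than the spread between replicates and 22 by more. The interaction against AL could not be run on the signals, since the AL-NIA columns were not used. Dim genes lie near background, where differences are understated: with neqc Cidea lay at -2.03, Per3 at -1.20 and Nupr1 at 1.28.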

Other observations

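The genes here were chosen after their values were seen, and none passed over all genes in the limma fit with all libraries. Differences are MF-WIS minus MF-NIA. Cdkn1a, a cell cycle inhibitor, differed by 1.00 on the log2 scale (0.77 without MF-WIS replicate 4), and its other probe gave 0.51. Ccnd1, the cyclin that starts the cycle, differed by 0.94, and its other probes gave 0.84 and 0.42. Igfbp1, which binds insulin-like growth factors, differed by 1.16, and by 0.86 without MF-WIS replicate 4. Tubb2b, a tubulin, differed by 1.43, and its other probe gave 0.35. Lgals8, a galectin, differed by 0.61 with groups that did not overlap (adjusted p = 0.124) and passed under 5 of 52 alternatives, and its other probe gave 0.40. Flt1, a receptor for vascular growth factors, lay at -0.70 and did not overlap either. Ubd, a ubiquitin-like protein, rested on MF-WIS replicate 4: its difference of 1.49 was 0.14 without it.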
